A study of Homo sapiens with 10 samples.

Results

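In ER-Src cells, 5308 of the 164605 FOS peaks called in transformed cells (3.22%) had a peak summit of every other factor, in both states, within 300 bp. These sites of all 5 factors were chosen by that rule alone: each carries a FOS summit of transformed cells and, within 300 bp of it, a summit in each of the other 9 peak lists. Before transformation and after it, FOS, JUN, JUNB, NFKB1 and STAT3 were thus all called there. The 10 lists hold 879550 peaks on chromosomes 1 to 22 and X. Joining members whose FOS summits lie within 300 bp of each other leaves 5288 loci, so 40 members share a locus with another.

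ER-Src cells are the MCF-10A breast epithelial line, immortalised but not malignant, carrying a v-Src kinase joined to the hormone-binding part of the estrogen receptor. Tamoxifen switches that kinase on, and the cells transform. Binding was measured by chromatin immunoprecipitation and sequencing (ChIP-seq), with 1 library for each factor in non-transformed cells (EtOH) and 1 in transformed cells (TAM). All 10 libraries come from this one line. The labels give 1 µM 4-hydroxy-tamoxifen and 12 h for the TAM cells. Names written in the headers of the lists give 12 h for TAM as well and 36 h for EtOH. They also carry a replicate letter, which is the same in both states for FOS, JUN and NFKB1 and differs for JUNB and STAT3, and what the letters mark is not given in the sources used here. No group has a replicate, so no difference between the states can be tested against replicate error, and every interval below covers counting or the sampling of sites and not the variation between cultures.

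FOS, JUN and JUNB belong to AP-1, a family of leucine zipper proteins that bind DNA as pairs. FOS pairs with JUN proteins and does not pair with itself, while JUN and JUNB can also pair with each other. NFKB1 encodes the p50 subunit of NF-κB, which binds DNA as a dimer and is central to inflammatory signalling. STAT3 is a latent factor that binds DNA after tyrosine phosphorylation, downstream of IL-6 family cytokines and of kinases such as Src. The catalogue number that the labels give for the STAT3 antibody is sold as specific for the tyrosine-phosphorylated protein, so the STAT3 values may refer to that form. Regions where many factors are called together are often enhancers, but a shared ChIP-seq peak does not show that the proteins sit on the same DNA molecule at the same time.

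The libraries kept 4837474 to 22082403 reads after the authors' filter, and NFKB1 in EtOH cells was the shallowest. Pileup is the number of extended reads over a summit. It is not scaled by depth in the lists and is given below either raw or depth-scaled, as reads per 1000000 filtered reads. The authors called peaks without a control library and kept 1 read per position, so pileup cannot exceed 228 to 300 reads, depending on the library. At the median the members reached 2.96% of that ceiling (NFKB1, EtOH) to 25.9% (FOS, TAM).

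The number of lists at a FOS site divided the peaks unevenly, from 29068 with FOS of TAM cells alone (17.7%) to the 5308 with all 10. The more lists a FOS peak had, the taller it was: the median FOS pileup in TAM cells was 9 reads with no other list, 25 with 6 lists, 52 with 9 lists and 59 with all 10. The peak itself widened as well, from a median of 133 bp to 454.5 bp. A taller peak passes a caller's threshold more easily, so these heights describe what the rule selected.

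**Figure D1:**
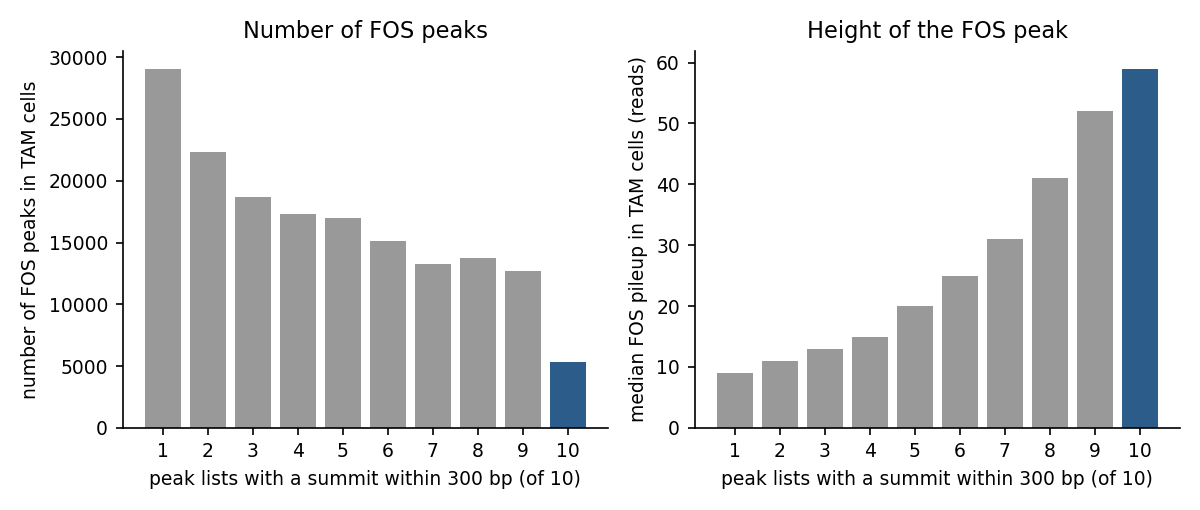
Number of FOS peaks of TAM cells (left) and their median FOS pileup in reads (right), by the number of the 10 peak lists with a summit within 300 bp; the blue bar marks the 5308 sites of all 5 factors. Sites with more lists were fewer and had taller FOS peaks, from a median of 9 reads to 59.

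NFKB1 in EtOH cells was the list that most often decided membership. Of the 12705 FOS peaks with 9 lists, 10409 (81.9%) lacked NFKB1 of EtOH cells, 1070 (8.42%) lacked STAT3 of EtOH cells and 714 (5.62%) lacked JUNB of EtOH cells. Each of the other lists was the missing one at 183 sites or fewer. The NFKB1 library of EtOH cells had the fewest reads and its list the fewest peaks, 13252, so that missing binding and missing depth cannot be told apart at those 10409 sites. Members took up 39.9% of that list, against 3.22% to 12.4% of the other 9.

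The same list held the weakest evidence for most members. Ranked within each list by the caller's q-value, the median member stood at the 79th to 93rd percentile in 9 lists but at the 52.9th in NFKB1 of EtOH cells, where 46.8% of members fell below the list's median. It was the list of lowest standing for 2833 members (53.4%). Above the median of every list were 1778 members (33.5%), and 61 (1.15%) were in the upper 10% of every list.

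At the threshold itself, 63 members had their furthest summit in the last 20 bp before the limit and a median FOS pileup of 37 reads in TAM cells. Just outside, 50 FOS peaks had 9 lists and the remaining summit in the next 20 bp, with a median of 38 reads. The furthest summit of the typical member was 69 bp away. A limit of 150 bp would leave 4379 sites and one of 500 bp would give 6230. Inside it at exactly 300 bp was chr12:113679509-113680130 (hg19), with STAT3 of TAM cells the furthest. The nearest peaks outside included one on chromosome 5 with its FOS summit at 106912623, where JUNB of EtOH cells was 1 bp beyond the limit.

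The strongest member by its summed ranks over the 10 lists was chr5:119474760-119475173. Its depth-scaled pileup in EtOH and TAM cells was 8.43 and 5.16 for FOS, 3.72 and 3.90 for JUN, and 7.63 and 6.03 for JUNB. NFKB1 stood at 16.5 and 9.92 and STAT3 at 9.70 and 10.5. FOS and NFKB1 were lower in the TAM library and STAT3 was close to level, and all 10 summits fell within 35 bp.

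The next sites by that ranking also differed in NFKB1. At chr1:145113793-145115123, the depth-scaled NFKB1 pileup was 22.9 in EtOH cells and 14.9 in TAM cells, the tallest NFKB1 peak of either library among the 10 leading sites. At chr1:145042663-145043683, FOS at 8.97 and 6.79 came with NFKB1 at 3.10 and 5.06. STAT3 at that second site was 5.95 in EtOH cells and 13.2 in TAM cells, the highest STAT3 value among the 10.

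Over all 10 leading sites, the depth-scaled FOS pileup was lower in TAM than in EtOH cells at each one, with log2 ratios from -0.71 to -0.32, and STAT3 was higher at each one, from 0.11 to 1.84. NFKB1 went either way, from -0.84 at chr11:43942173-43942758 to 1.05 at chr9:103191521-103192052. The other leading sites were chr5:147565561-147566512, chr1:201998118-201998768, chr2:56112577-56113208, chr12:127610146-127611257 and chr12:94018352-94019262. These 10 were ranked on the heights themselves, so their size is no finding.

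Among the AP-1 proteins, FOS had the tallest raw peaks at members. Its median pileup was 61 reads in EtOH cells and 59 in TAM cells, or 3.28 after depth scaling (95% interval 3.22 to 3.33) and 2.67 (2.63 to 2.72). JUN stood at 24 and 38 reads, or 1.51 and 2.06 after scaling. JUNB stood at 21 and 40 reads, or 2.29 and 2.54 after scaling. Each antibody has its own efficiency, so a level of one factor is not comparable with a level of another.

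NFKB1 had a median of 8 reads in EtOH cells, against a lowest pileup of 4 in that list, and 22 in TAM cells, which gives 1.65 and 2.27 after scaling. STAT3 had 17 and 26 reads, or 1.56 after scaling (1.56 to 1.65) and 2.90 (2.79 to 3.01). In 9 lists the members' median was above that of all peaks in the list. In NFKB1 of EtOH cells the members' median and the list's median were both 8 reads.

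**Figure D2:**
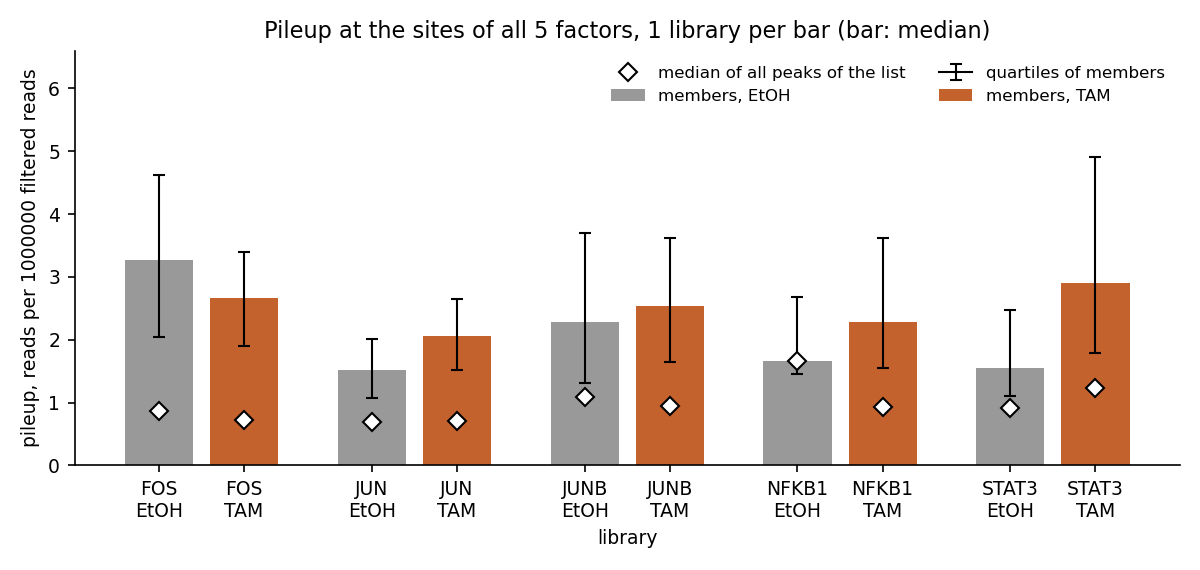
Median depth-scaled pileup, in reads per 1000000 filtered reads, at the 5308 members in each of the 10 libraries (bars, with the quartiles over members as whiskers) and the median over all peaks of that list (diamonds). The members' median lies above that of the list except in NFKB1 of EtOH cells, where both are 1.65.

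With depth scaling, STAT3 showed the largest shift between the states. Its median ratio of depth-scaled pileup, TAM over EtOH, was 1.74 (95% interval 1.71 to 1.77), and 4570 members (86.1%) were higher in the TAM library. JUN followed with 1.35 (1.34 to 1.36). NFKB1 at 1.13 (1.11 to 1.14) and JUNB at 1.04 (1.03 to 1.06) were near level, and FOS was lower in the TAM library, at 0.779 (0.773 to 0.786).

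For STAT3 and JUN these medians were close to those of all sites the factor held in both states. On the log2 scale STAT3 stood at 0.80 for members and 0.74 for its 30809 common sites, and JUN at 0.43 and 0.37 for its 64622. FOS stood further below its common sites, -0.36 for members against -0.09 for 99959. JUNB was at 0.06 against -0.06 and NFKB1 at 0.17 against 0.00. Members used 5289 distinct NFKB1 peaks of EtOH cells and 5291 of TAM cells, so they overlap heavily with the 11953 common NFKB1 sites.

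Scaling decides the order of the factors and the sign for JUNB. By the caller's fold enrichment the NFKB1 median (0.84 on the log2 scale) was above that of STAT3 (0.66), and with the median of all common sites set to 1 the STAT3 median was 0.055, below NFKB1, and FOS stood furthest from 0 at -0.27. With pileup divided by the genome mean pileup, which also takes account of the fragment length of each library, the JUNB median was -0.01 on the log2 scale in place of 0.06, and the caller's own fold enrichment gave 0.46. The NFKB1 median ranged from 0.12 to 0.84 over the settings tried. FOS stayed below 0 and JUN and STAT3 above 0 under every setting tried.

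A 2-fold higher depth-scaled pileup in TAM cells was found for STAT3 at 2048 members (38.6%), where 38% of all common STAT3 sites were called. For JUN it was found at 564 (10.6%), against 14.6% of common JUN sites. NFKB1 reached it at 524 (9.87%, background 9.13%), JUNB at 395 (7.44%, background 7.74%) and FOS at 87 (1.64%, background 8.43%). Members were thus near the background for STAT3, NFKB1 and JUNB and below it for JUN and FOS.

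A 2-fold lower pileup was rarer at members than at common sites for all 5 factors. It was found for FOS at 248 members (4.67%, background 6.72%), for NFKB1 at 217 (4.09%, background 7.06%) and for JUNB at 105 (1.98%, background 7.47%). STAT3 had 57 such members (1.07%, background 1.47%) and JUN 11 (0.207%, background 1.28%). In TAM cells FOS had a median of 59 reads at members against 25 at common sites, while NFKB1 had 22 against 20 and, in EtOH cells, 8 against 8. Taller peaks have a smaller counting error in their ratio, and the part of height in these counts was not tested.

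**Figure D3:**
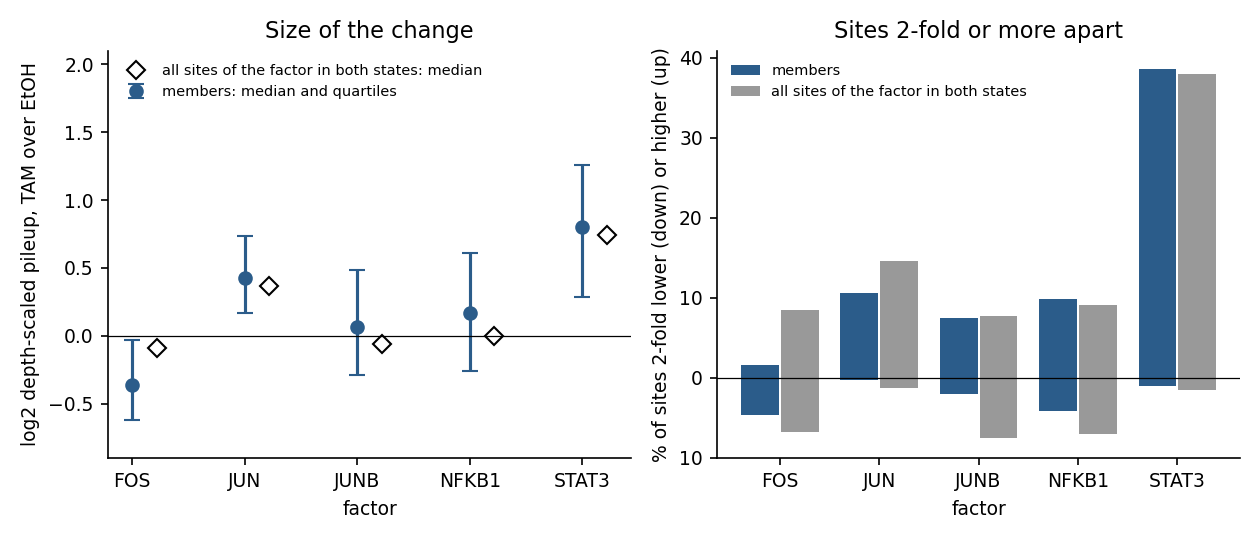
Left, log2 ratio of depth-scaled pileup, TAM over EtOH, for each factor, as median and quartiles over the 5308 members (circles) and median over all sites of the factor in both states (diamonds). Right, percent of members (blue) and of all such sites (grey) that were 2-fold or more higher (up) or lower (down) in TAM. STAT3 was 2-fold higher at 38.6% of members and 38% of all its common sites, and FOS is the factor whose members sat furthest below its other sites.

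Counting error covers much of the spread for NFKB1 and JUN. The SD of the log2 ratio over members, taken from its quartiles, was 0.65 for NFKB1, where counting alone gives a median SD of 0.60 per site, and 0.42 against 0.38 for JUN. The spread was well above the counting error for STAT3 (0.72 against 0.46), FOS (0.44 against 0.27) and JUNB (0.57 against 0.39). NFKB1 had the largest counting error of the 5 and FOS the smallest.

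At 2283 members (43%) no factor was 2-fold apart between the states. At 1281 (24.1%) STAT3 was 2-fold higher and no other factor was 2-fold apart in either direction. Without a condition on the other factors, STAT3 was 2-fold higher at 38.6% of members and at 38% of all common STAT3 sites. With common sites set to 1, members with STAT3 2-fold higher numbered 511 in place of 2048, and the share over common sites was not counted under that scaling. The joint 2-fold counts given here were not made outside the members or under other scalings. STAT3 and NFKB1 were both 2-fold higher at 353 members (6.65%), STAT3 and JUN at 319 (6.01%), and all 5 factors at 11 (0.207%). STAT3 had the highest of the 5 ratios at 2911 members (54.8%) and FOS the lowest at 3177 (59.9%). By fold enrichment STAT3 was highest at 1388 and NFKB1 at 2112 members, and with common sites set to 1 they were highest at 1137 and 1507. FOS was the factor most often lowest under all these scalings, at 2079 to 4022 members.

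The widest STAT3 increases among members with at least 20 reads in both libraries were at chr13:74003599-74004305, with 21 reads in EtOH and 105 in TAM cells, and at chr12:46832636-46833211, with 26 and 121 reads. The ratios of depth-scaled pileup were 6.09 (95% counting interval 3.79 to 10.3) and 5.67 (3.69 to 9.03). The first of these sites had a lower FOS peak in TAM cells: FOS was at 6.07 and 4.03, JUN at 2.46 and 3.14 and JUNB at 4.03 and 3.62. At the second, FOS stood at 1.02 and 3.58 and NFKB1 at 2.27 and 6.31 in the EtOH and TAM libraries, so that all 5 factors were higher in TAM cells there.

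The lowest STAT3 ratios were 0.402 (0.254 to 0.617) at chr1:91852742-91853117, with 88 reads in EtOH and 29 in TAM cells, and 0.417 (0.254 to 0.665) at chr6:119558516-119558767, with 73 and 25 reads. All 5 log2 ratios were below 0 at both. At the first, NFKB1 was at 10.3 in EtOH and 4.03 in TAM cells and FOS at 4.83 and 2.63. The 10 summits there spanned 25 bp, against a median of 94 bp over members. Whether the named sites of low ratio are sites of binding was not tested.

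For NFKB1 the largest ratios were 2.20 (1.34 to 3.78) at chr6:138132336-138133300, with 20 reads in EtOH and 88 in TAM cells, and 2.13 (1.38 to 3.41) at chr2:224951035-224951736, with 26 and 111 reads. The smallest were 0.250 (0.138 to 0.438) at chr20:26189790-26190265, with 40 and 20 reads, and 0.348 (0.214 to 0.558) at chr1:156186167-156186664, with 46 and 32 reads. Only 766 members had 20 reads in both NFKB1 libraries, against 4884 for FOS, so the named NFKB1 sites come from the tallest peaks.

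For FOS the lowest ratio was 0.213 (0.129 to 0.340) at chr11:114068625-114069094, where 91 reads in EtOH faced 23 in TAM cells, and STAT3, NFKB1, JUN and JUNB were lower in TAM cells as well. The highest FOS ratio outside chromosome 8 was 3.05 (1.96 to 4.91) at chr10:25357017-25357573, with 26 and 94 reads, and all 5 factors were higher there. For JUN the extremes were 0.461 (0.262 to 0.792) at chrX:108297655-108297834 and 3.14 (1.96 to 5.22) at chr1:193982761-193983667. For JUNB they were 0.285 (0.160 to 0.490) at chrX:82012713-82012986 and, outside chromosome 8, 2.48 (1.56 to 4.10) at chr7:104908434-104908853. All 5 factors were higher in TAM cells at that chromosome 7 site. At chrX:82012713-82012986 FOS and NFKB1 were lower along with JUNB, while JUN and STAT3 were higher (log2 ratios 0.04 and 0.37). Over all members JUN and STAT3 were higher in the TAM library at 85.5% and 86.1%.

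Across members, the changes of the 5 factors were loosely related. Pearson's r of the log2 ratios was highest between FOS and JUNB (0.47) and between NFKB1 and STAT3 (0.42) and lowest between JUN and NFKB1 (0.19), over 5308 members whose values share the same libraries. Heights within a state grouped the AP-1 proteins more tightly. In EtOH cells r of log2 pileup was 0.84 between FOS and JUNB and 0.61 between FOS and JUN, but -0.03 between FOS and NFKB1 and 0.16 between FOS and STAT3. In TAM cells these were 0.86, 0.76, 0.38 and 0.44. The EtOH value of NFKB1 rests on peaks with a median of 8 reads.

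The balance of NFKB1 and STAT3 against FOS at a member carried over from one state to the other. The log2 ratio of NFKB1 to FOS in TAM cells was correlated with that in EtOH cells at r = 0.80 (Spearman's rho 0.78), and that of STAT3 to FOS at r = 0.76 (rho 0.75), each over 5308 members and 4 separate libraries. For JUN to FOS r was 0.47 and for JUNB to FOS 0.30. The AP-1 balances spanned a smaller range than those of NFKB1 and STAT3. Single heights carried over as well. Between the states, r of log2 pileup was 0.78 when FOS was taken alone, 0.71 with NFKB1 and 0.69 with STAT3. JUN height reached 0.73 and JUNB height 0.80, although their balances against FOS had a lower r. How much of the r of a balance comes from the heights of its 2 factors was not tested.

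The members at the ends of that range show its size. The 530 members lowest in STAT3 over FOS in EtOH cells had medians of 10 STAT3 and 93 FOS reads there, and 18 and 75.5 in TAM cells. The 530 highest had 43 STAT3 and 30 FOS reads in EtOH cells, and 55 and 40 in TAM cells. In log2 STAT3 over FOS, depth-scaled, the first group stood at -2.39 in EtOH and -0.76 in TAM cells (95% interval -0.84 to -0.72), the second at 1.12 and 1.63 (1.58 to 1.70).

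The same held for NFKB1. The 530 members lowest in NFKB1 over FOS in EtOH cells had medians of 6 NFKB1 and 107 FOS reads, and the 530 highest had 30 and 30. In TAM cells, which took no part in that choice, the medians were 18 and 83 reads in the first group and 52 and 42 in the second. The groups were picked at the ends of the EtOH ratio, and in each case the gap between them was narrower in TAM than in EtOH cells.

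**Figure D4:**
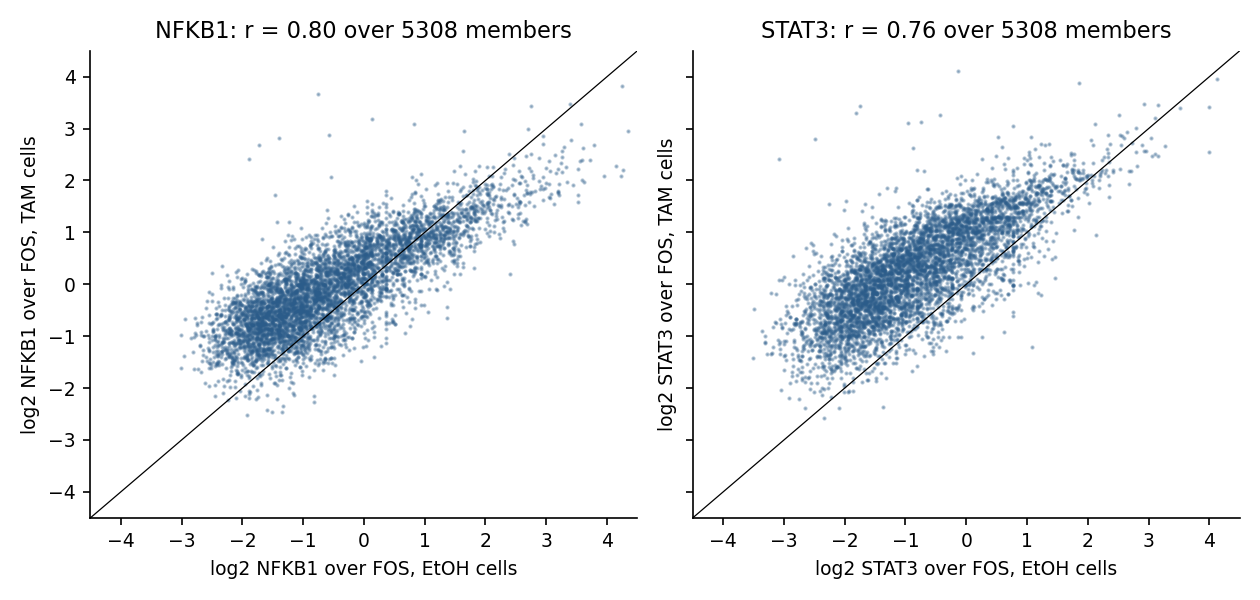
Log2 ratio of NFKB1 to FOS (left) and of STAT3 to FOS (right), from depth-scaled pileup, in EtOH cells (x axis) and TAM cells (y axis), 1 point per member with the line of equal values. Both clouds rise along the line (r = 0.80 and 0.76), and most STAT3 points lie above it.

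The summits of the AP-1 proteins lay closest together, within the 300 bp that the rule set for all. From the FOS summit of TAM cells, the median distance was 12 bp to FOS of EtOH cells (95% interval 11 to 13), 14 bp to JUN and 14.5 bp to JUNB of TAM cells, and 16 and 20 bp to JUNB and JUN of EtOH cells. NFKB1 and STAT3 lay further out, at 24 and 23 bp in TAM cells and 35 and 33 bp in EtOH cells. Lower peaks place their summits less precisely. The median pileup was 8 to 26 reads in the NFKB1 and STAT3 lists and 21 to 61 in the AP-1 lists, so the ranges overlap. The part of that precision in this ordering was not tested.

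All 10 summits of a member fell within a median span of 94 bp (95% interval 92 to 96), with quartiles at 62 and 153 bp. In 825 members (15.5%) they fell within 50 bp and in 142 (2.68%) they spread over more than 300 bp. The height of STAT3 made little difference to its distance: over 4 equal groups of members, from that with 4 to 16 STAT3 reads in TAM cells to that with 44 to 143, the median distance to FOS was 26, 21, 24 and 23 bp.

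Where NFKB1 or STAT3 was offset from FOS in TAM cells, it was mostly offset to the same side in EtOH cells. Beyond 100 bp the summit lay on the same side of the FOS summit in the other state at 502 of 626 members for STAT3 (80.2%, Wilson 95% interval 76.9 to 83.1) and at 474 of 580 for NFKB1 (81.7%, 78.4 to 84.7). For JUN the share was 64.6% (58.5 to 70.2) and for JUNB 48.3% (41.0 to 55.7). At 1 to 25 bp it was 52.2% to 56.9% for the 4 factors.

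Different factors also shared a side of FOS. Among 707 members where STAT3 in TAM cells and NFKB1 in EtOH cells both lay more than 50 bp from the FOS summit of their own state, 535 (75.7%, 72.4 to 78.7) had them on the same side, with a median of 54 bp between the offsets. Of the 678 with NFKB1 in TAM and STAT3 in EtOH cells so placed, 511 (75.4%, 72.0 to 78.5) did. Each factor with itself gave 85.7% for STAT3 and 86.1% for NFKB1, at a median of 34 bp. JUN of EtOH cells was placed likewise: it lay on the same side as STAT3 of TAM cells at 288 of 413 members (69.7%, 65.1 to 74.0) and as NFKB1 of TAM cells at 326 of 429 (76.0%, 71.7 to 79.8). For JUNB of EtOH cells the shares were 53.4% (47.2 to 59.6) and 54.3% (48.2 to 60.3). The same side was thus shared by NFKB1, STAT3 and JUN, and these comparisons use a different library for each summit. The FOS summits of the EtOH and TAM cells, from which the sides are taken, lay a median of 12 bp apart. With so close a reference point the sides are not independent, here or in the shares between the states above.

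The widest span of the 10 summits among the 10 leading sites was 201 bp, at chr12:127610146-127611257. There the 4 NFKB1 and STAT3 summits lay 10 to 20 bp from the FOS summit of TAM cells while FOS of EtOH cells lay 157 bp and the 4 JUN and JUNB summits 169 to 181 bp from it.

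**Figure D5:**
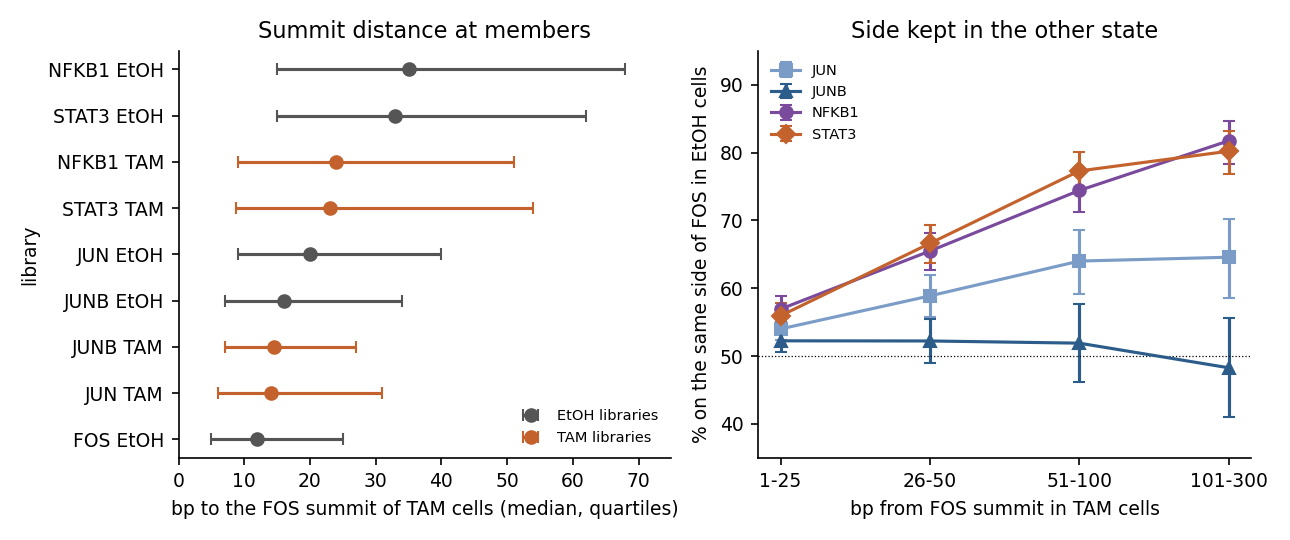
Left, distance in bp from the FOS summit of TAM cells to the summit of each other library at the 5308 members (median and quartiles). Right, percent of members whose summit lay on the same side of the FOS summit in EtOH as in TAM cells, by its distance from FOS in TAM cells, with Wilson 95% intervals and a dotted line at 50%. NFKB1 and STAT3 lay furthest out, and beyond 100 bp they kept their side at 81.7% and 80.2% of members.

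Members were compared with the 10409 sites that lacked only NFKB1 of EtOH cells and the 4145 that had all 6 AP-1 lists but neither NFKB1 nor STAT3 in either state. The median depth-scaled FOS pileup in TAM cells was 2.67, 2.45 and 1.27 in the 3 classes. The FOS ratio between the states was -0.36, -0.25 and -0.39 on the log2 scale, and the JUN ratio 0.43, 0.60 and 0.37. JUNB stood at 0.06, 0.07 and -0.40 (95% interval -0.42 to -0.36). With depth scaling it was thus near level in the first 2 classes and lower in TAM cells at the AP-1 sites. Other scalings, which decide the sign for JUNB at members, were not tried for these classes. STAT3 was at 0.80 in members and 0.95 where NFKB1 of EtOH cells was missing. The classes differ in height, and the part of height in these ratios was not tested.

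Members were spread over all chromosomes examined. They made up 1.49% (Wilson 95% interval 1.19 to 1.87) of the FOS peaks of TAM cells on chromosome X, 2.56% to 4.26% on the other chromosomes but 1, and 4.31% (4.01 to 4.64) on chromosome 1. Another member lay no more than 12483 bp away, the widest gap joined, for 1174 (22.1%, 21.0 to 23.3), against 25.1% for the sites without NFKB1 of EtOH cells among themselves and 6.27% for the AP-1 sites. The share depends on how many sites a class has.

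Most runs of members were short. Joining members by the same rule left 4134 on their own and 424 pairs, and 5 runs had 6 members or more. The 3 longest runs lay at chr10:42379910-42403132 with 16 members, chr2:132996644-133034554 with 15 and chr18:18512016-18520287 with 10, first to last summit. The others had 9 members on chromosome 2 and 6 on chromosome 19.

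In those 5 runs the raw pileup of the 10 libraries was more alike than at other members. Over the 56 members the highest library median was 32 reads (FOS, EtOH) and 2.56 times the lowest (STAT3, TAM), where the other members (without those of even pileup described next) gave a factor of 7.75 between libraries and the libraries differ in depth by a factor of 4.56. The run of 15 members on chromosome 2 was the least even, with library medians from 9 to 27 reads. At chr10:42396356-42396987, in the longest run, the raw pileup was 37 to 52 reads in all 10 libraries and all 10 summits fell on the same base. The depth-scaled ratios there were below 0 for all 5 factors on the log2 scale.

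Such even sites were not limited to the runs. A coefficient of variation of raw pileup under 0.3 over the 10 libraries, a limit set after the values were seen, picked 78 members, 31 of them in the runs, against a median of 0.59 over all members. Their 10 summits spanned a median of 13.5 bp, where the members outside both sets spanned 95 bp. Of the 33 members with a span of 10 bp or less, 32 were even or in a run. Most sites with the tightest summits were thus even or in runs. Whether the even sites and the runs are sites of binding was not tested, and the hg19 sequence there was not examined.

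Across the runs, the median log2 ratio of depth-scaled pileup was -0.71 for FOS, -0.34 in JUN, -0.46 in JUNB, -1.28 in NFKB1 and -0.61 in STAT3. The ratio of the library depths alone, EtOH over TAM, is -0.25, -0.22, -0.78, -1.0 and 0.29 on the same scale. Without the 103 members that were even or in runs, the medians of the remaining 5205 were -0.35, 0.44, 0.07, 0.19 and 0.82, and the correlations of NFKB1 and STAT3 over FOS between the states were 0.80 and 0.76. For JUN and JUNB over FOS they were 0.45 and 0.27. The medians and the NFKB1 and STAT3 correlations given above were thus little changed without these sites. The JUN and JUNB correlations were lower than the 0.47 and 0.30 over all members.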

How the data were processed

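Peak lists of 10 ChIP-seq libraries were used, 1 for each of 5 factors in EtOH and TAM cells. The authors called each list with MACS 2.0.10.20131216 from uniquely aligned 36 bp reads, with no control library, a genome size of 2.7e+09 bp, a local background over 1000000 bp, a q-value cutoff of 0.05 and 1 read kept per position. The submitters' processing notes name Bowtie, MACS2 and hg19. The deposited pileup is a signal, extended reads over the summit, not scaled by depth. Per the file headers, significance is given as −log10 p-value and −log10 q-value, and the ratio column deposited by the authors is fold enrichment over the local background. Depth was 4837474 to 22082403 filtered reads, and a lower depth gives lower pileups and fewer peaks.

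For each FOS peak of TAM cells on chromosomes 1 to 22 and X, the nearest summit of every other list was taken, within 300 bp for members. The members and lists were chosen with earlier results of these data known. Groups came from the labels. Ratios used pileup per 1000000 filtered reads, at least 2-fold for a count. Medians have order-statistic 95% intervals and shares Wilson 95% intervals. Named sites were the 10 with the smallest summed q-value ranks, the largest and smallest ratios with at least 20 reads in both states, the tightest, those nearest the limit and the 3 longest runs. Sites on chromosome 8 are not named by position. No motif, sequence or gene was assigned, since the reference at hand is of another build than hg19, and coordinates were not converted. Computations used Python 3.11.15, numpy 2.4.6, pandas 2.3.3 and scipy 1.17.1 and were tested on simulated data. Alternatives were summit limits of 150 and 500 bp, a −log10 q of at least 5, merged loci, another anchor list, overlap of whole peaks, other scalings and the highest summit.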

Additional observations from a re-analysis of the deposited data

Results flagged for a closer look

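The median log2 ratios of FOS and STAT3, TAM over EtOH, had opposite signs at the sites of all 5 factors. With depth-scaled pileup the median was 1.16 higher for STAT3 than for FOS. With 1 library per group this difference was not tested. Over all common sites of each factor the medians were 0.74 for STAT3 and -0.09 for FOS, so the signs were not particular to members. With the median of common sites set to 1, the members' medians were 0.055 and -0.27. STAT3 was 2-fold higher and FOS 2-fold lower at 27 members (0.509%).

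On chromosomes that the comparisons above leave out, 11 of 54 FOS peaks of TAM cells on chromosome Y and 4 of 10 on the mitochondrial genome had a summit of all 10 lists within 300 bp. In both cases the share was larger than the 3.22% found on the chromosomes compared above. No control library was used to set the sites on chromosome Y and the mitochondrial genome against, and their origin was not tested.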

How the results depend on the processing

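The number of sites was within 1.5 times of 5308 with summit limits of 150 or 500 bp, merged loci, NFKB1 of EtOH cells as the anchor, overlap of whole peaks and without the even members and runs, and fell to 3344 with a −log10 q of at least 5. With MACS fold enrichment the median log2 ratios of FOS, JUN, JUNB, NFKB1 and STAT3 were -0.24, 0.55, 0.46, 0.84 and 0.66. With the median of all common sites set to 1 those of FOS, JUN, JUNB and STAT3 were -0.27, 0.063, 0.13 and 0.055. Per genome mean pileup they were -0.29, 0.53, -0.0053, 0.34 and 1.13 for FOS, JUN, JUNB, NFKB1 and STAT3, so JUNB reversed. With a −log10 q of at least 5 JUN was at 0.41 and NFKB1 at 0.12.

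Members 2-fold higher numbered 960 for JUNB and 2054 for NFKB1 by MACS fold enrichment, 180 for JUN and 511 for STAT3 with the common sites set to 1, and 808 for NFKB1 per genome mean pileup. Members 2-fold lower numbered 121 (FOS), 4 (JUN), 7 (JUNB) and 15 (NFKB1) by MACS fold enrichment, 57 for JUN and 447 for STAT3 with the common sites set to 1, 7 for JUN and 24 for STAT3 per genome mean pileup, and 6 for JUN with the highest summit. The shares over all common sites were not counted under these settings, so these counts have no background to be set against. Fold enrichment adds 1 to pileup and background, so its ratios depend on depth, and the other causes were not tested.

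With a limit of 150 bp the median distances were 18, 15, 30 and 29 bp for JUN, JUNB, NFKB1 and STAT3 in EtOH cells, and 13, 21 and 21 bp for JUN, NFKB1 and STAT3 in TAM cells. With a −log10 q of at least 5 they were 15 bp for JUNB, 31 bp for NFKB1 and 30 bp for STAT3 in EtOH cells, and 13, 22 and 22 bp for JUN, NFKB1 and STAT3 in TAM cells. The share of members near another was 13.2% within 5 kb. The genome mean scaling and the removal of even members and runs were chosen after seeing the data.

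No paired analysis was possible because each group has 1 sample, and leaving out a replicate was likewise not possible. The alternatives for motifs and start sites, which need the hg19 genome, were not run. A pileup of 8 reads at the median NFKB1 summit of EtOH cells limits ratios at single sites.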
